A study of Mus musculus with 35 samples.

Results

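The Hox genes of the mouse lie in 4 clusters, and 39 of the 26127 rows of the expression table carry a name made of Hoxa, Hoxb, Hoxc or Hoxd followed by a number. Values are given here for 38 of them. They comprise 10 Hoxa genes on chromosome 6 (52112350 to 52210874, NCBIM37), 10 Hoxb genes on chromosome 11 (96055630 to 96229570), 9 Hoxc genes on chromosome 15 (102751534 to 102867274) and 9 Hoxd genes on chromosome 2 (74506367 to 74603200). The Hoxa genes lie on the minus strand and the others on the plus strand. Genes were grouped by their number into anterior (1 to 3), central (4 to 8) and posterior (9 to 13).

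The libraries were made from mouse embryonic stem cells (ESCs), whose background strain the labels give as E14 and the study's methods as C57BL/6 for the Dnmt1 line, by sequencing total RNA depleted of ribosomal RNA. There were 17 WT libraries and 17 Dnmt1 KO libraries over days 0, 1, 3, 6, 9, 11, 17 and 25, with 2 libraries for each genotype and day and 3 at day 1, and 1 Dicer KO library. The series' own account of its design counts 2 replicates of each genotype and day, which leaves the third pair of day 1 unaccounted for. By the study's methods, Dnmt1 carried loxP sites and was deleted by Cre that tamoxifen induces, and the Dicer KO was made by CRISPR/Cas9 in cells of that conditional line, grown up from single-cell colonies, so that it stands for 1 clone or a few. Cells were kept in serum with LIF, with or without feeder cells, and the labels do not say which libraries had feeders. The replicates are described as biological, with no word on whether they came from separate cultures, so p-values measure the spread between these libraries, which may be technical.

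Hox genes encode homeodomain transcription factors that give position along the body axis, and within a cluster their order on the chromosome matches the order of their expression along that axis. In ESCs the clusters are textbook targets of the Polycomb complexes, which keep them silent with H3K27 methylation and monoubiquitinated H2A until differentiation. Trithorax methyltransferases of H3K4 act in the opposite direction, and retinoic acid and Cdx factors are known to open the clusters from the anterior end. Dnmt1 copies DNA methylation to the new strand at replication and Dicer cuts double-stranded RNA into small RNAs.

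Since the libraries compare cells with and without the enzyme that maintains CG methylation, the CG content at the Hox starts is shown first. In the 250 bases before the 5′ end of each row, read from NCBIM37, the 38 Hox genes held a median of 11 CG (2 to 41), against 7 (0 to 59) over 26122 rows. All 38 windows held at least 1 CG, as did 92.4% of all windows. The motif searched was CG, which reads the same on both strands. Printed below are the windows of Hoxa7, the highest in WT of the Hoxa genes described, of Hoxa10 and Hoxa13, the highest in the Dicer KO library, and of Hoxc13 and Hoxd13, the highest of their clusters in WT, with each CG in capitals. They ranged from 7 CG before Hoxa10 to 35 CG before Hoxa13.
Hoxa7, chr6:52171854-52172103, minus strand, 12 CG: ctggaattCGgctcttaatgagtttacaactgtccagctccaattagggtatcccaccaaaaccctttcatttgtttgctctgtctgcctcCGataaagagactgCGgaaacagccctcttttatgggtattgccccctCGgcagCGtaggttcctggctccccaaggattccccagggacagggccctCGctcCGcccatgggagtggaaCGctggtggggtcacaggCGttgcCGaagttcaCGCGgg
Hoxa10, chr6:52190854-52191103, minus strand, 7 CG: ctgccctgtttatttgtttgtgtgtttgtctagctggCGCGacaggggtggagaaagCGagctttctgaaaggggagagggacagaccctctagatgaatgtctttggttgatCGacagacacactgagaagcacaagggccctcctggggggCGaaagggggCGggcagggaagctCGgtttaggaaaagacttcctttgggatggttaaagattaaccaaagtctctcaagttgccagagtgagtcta
Hoxa13, chr6:52210875-52211124, minus strand, 35 CG: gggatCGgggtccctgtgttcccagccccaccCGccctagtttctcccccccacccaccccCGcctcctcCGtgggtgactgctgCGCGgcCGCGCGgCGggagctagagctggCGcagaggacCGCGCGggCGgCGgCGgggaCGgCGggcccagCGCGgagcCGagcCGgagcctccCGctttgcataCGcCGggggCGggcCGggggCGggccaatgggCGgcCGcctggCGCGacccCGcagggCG
Hoxc13, chr15:102751284-102751533, plus strand, 15 CG: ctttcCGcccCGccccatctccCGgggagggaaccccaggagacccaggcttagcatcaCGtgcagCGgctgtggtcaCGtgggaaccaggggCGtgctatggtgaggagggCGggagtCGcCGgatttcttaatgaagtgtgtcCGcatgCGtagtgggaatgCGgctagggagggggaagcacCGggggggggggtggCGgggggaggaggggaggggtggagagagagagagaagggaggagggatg
Hoxd13, chr2:74506117-74506366, plus strand, 31 CG: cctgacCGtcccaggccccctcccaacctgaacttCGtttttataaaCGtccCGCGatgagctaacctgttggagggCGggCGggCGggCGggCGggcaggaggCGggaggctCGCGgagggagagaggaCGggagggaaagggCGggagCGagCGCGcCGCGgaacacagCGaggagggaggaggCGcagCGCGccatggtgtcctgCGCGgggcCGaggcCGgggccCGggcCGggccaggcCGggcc

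The depth of a library was 24.3 to 72.1 mega-reads, with 5.21 to 18.01 mega-reads in gene exons. Exons took 20.7% to 22.4% of the reads of 20 libraries, here called low-share, and 44.8% to 49.95% of those of 15, called high-share. High-share were the Dicer KO library, the third pair of day 1 and every pair after day 9, and the remaining pairs were low-share. Dnmt1 RNA was lower in KO after day 0, as labelled, except at day 6. It had 14.1 to 34.8 RPKM (reads scaled to exon length in kilobases and to library mega-reads) in WT and 2.58 to 4.40 RPKM in KO from day 3 on (18.5 to 18.7 at day 0 and 2.86 to 8.13 at day 1), but 3.22 and 3.40 RPKM in the libraries labelled WT and 20.2 and 20.4 RPKM in the libraries labelled KO at day 6. Differences are given by the labels, and no direction is drawn from day 6. The WT day 25 libraries stood apart from the other WT libraries. Their Dnmt1 RNA was 34.8 and 31.6 RPKM against 14.1 to 19.9 RPKM in the rest without day 6, and their 7 ESC markers summed to 926 and 958 RPKM against 1239 to 1848 RPKM in the other high-share WT libraries. Dicer1 RNA, at 4.01 RPKM in the library with Dicer targeted, was within the 3.9 to 8.57 RPKM of high-share WT libraries, so that its RNA level does not check that label.

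The 38 Hox genes were close to silent in WT and KO ESCs. The median of the 38 mean levels was 0.0198 RPKM in WT and 0.026 RPKM in KO, against a median of 0.24 RPKM over all rows in WT. Of the 1292 values in the 34 libraries, 35.5% were at 0 reads, 34.4% were above the floor of 3 reads, 127 were above 0.1 RPKM and 0 above 1 RPKM. Of the 38, 7 never had more than 3 reads in a WT or KO library, and Hoxc11 had 0 reads in all 17 WT libraries. At these depths a gene below 3 reads in every library cannot be told from one with no RNA. A level of 3 reads stood for 0.00609 to 0.12 RPKM, depending on the gene and library. Read counts here were recovered from the RPKM values and the exon lengths, and all Hox values were whole within 0.1.

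By mean WT level, the highest genes of the Hoxb, Hoxc and Hoxd clusters were those of the posterior end. Hoxd13, a gene of the digits, had a lowest, median and highest level of 0.0628, 0.145 and 0.50 RPKM in WT. On the same 3 measures Hoxc13, a gene of hair and nails, had 0.064, 0.116 and 0.30 RPKM. Hoxb13, a gene of the tail end and the prostate, had 0.0692, 0.104 and 0.347 RPKM. The ranges of Hoxc13 and Hoxb13 overlapped nearly whole, and those of Hoxd13 overlapped both, so that their order is not beyond the spread over libraries. The Hoxa genes lay lower, with mean WT levels of 0.0648 RPKM for Hoxa7, 0.059 RPKM for Hoxa2 and 0.0513 RPKM for Hoxa5, the highest of those described. The next genes of the other clusters were Hoxb9 (0.0876) and Hoxb4 (0.0508), Hoxc8 (0.0209) and Hoxc4 (0.018), and Hoxd1 (0.0718) and Hoxd8 (0.0657).

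The highest of the described genes of each cluster followed their own course over the days. Group means of Hoxa7 at days 0, 1, 3, 6, 9, 11, 17 and 25 were 0.0774, 0.0516, 0.0902, 0.0553, 0.0197, 0.0206, 0.0645 and 0.146 RPKM in WT and 0.080, 0.0723, 0.0958, 0.0268, 0.0944, 0.0113, 0.0225 and 0.017 RPKM in KO. Those of Hoxb13 were 0.19, 0.0859, 0.101, 0.0722, 0.119, 0.111, 0.221 and 0.257 RPKM in WT and 0.158, 0.136, 0.067, 0.179, 0.060, 0.0147, 0.117 and 0.24 RPKM in KO. In both genes WT was highest at day 25. Group means of Hoxc13 were 0.0667, 0.124, 0.0961, 0.177, 0.115, 0.292, 0.0957 and 0.221 RPKM in WT and 0.0938, 0.165, 0.115, 0.121, 0.0842, 0.316, 0.165 and 0.188 RPKM in KO, with a peak at day 11 in both genotypes. Those of Hoxd13 were 0.147, 0.159, 0.134, 0.159, 0.123, 0.0685, 0.42 and 0.367 RPKM in WT and 0.185, 0.137, 0.157, 0.0534, 0.363, 0.168, 0.216 and 0.199 RPKM in KO, with the WT peak at day 17 and the KO peak at day 9. Among the other named genes, group means over the days without day 6 went in WT from 0.00819 (day 11) to 0.17 RPKM (day 25) for Hoxa5, from 0 (day 17) to 0.187 RPKM (day 25) for Hoxa2, from 0.0195 (day 17) to 0.143 RPKM (day 25) for Hoxb9 and from 0.00313 (day 11) to 0.0957 RPKM (day 0) for Hoxb4. In KO they went from 0 (day 11) to 0.0948 RPKM (day 0) for Hoxa5, from 0.0155 (day 9) to 0.0887 RPKM (day 25) for Hoxa2, from 0.0757 (day 17) to 0.193 RPKM (day 3) for Hoxb9 and from 0.0195 (day 11) to 0.0952 RPKM (day 9) for Hoxb4. The lower named genes of the Hoxc and Hoxd clusters stayed near the floor in part of the libraries. In WT they went from 0 (day 11) to 0.0508 RPKM (day 3) for Hoxc8, from 0 (day 17) to 0.0269 RPKM (day 3) for Hoxc4, from 0.0248 (day 11) to 0.156 RPKM (day 0) for Hoxd1 and from 0.0123 (day 17) to 0.103 RPKM (day 11) for Hoxd8. In KO they went from 0.00718 (day 11) to 0.103 RPKM (day 9) for Hoxc8, from 0 (day 17) to 0.0366 RPKM (day 1) for Hoxc4, from 0.0262 (day 17) to 0.122 RPKM (day 11) for Hoxd1 and from 0.0473 (day 17) to 0.126 RPKM (day 9) for Hoxd8.

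**Figure D1:**
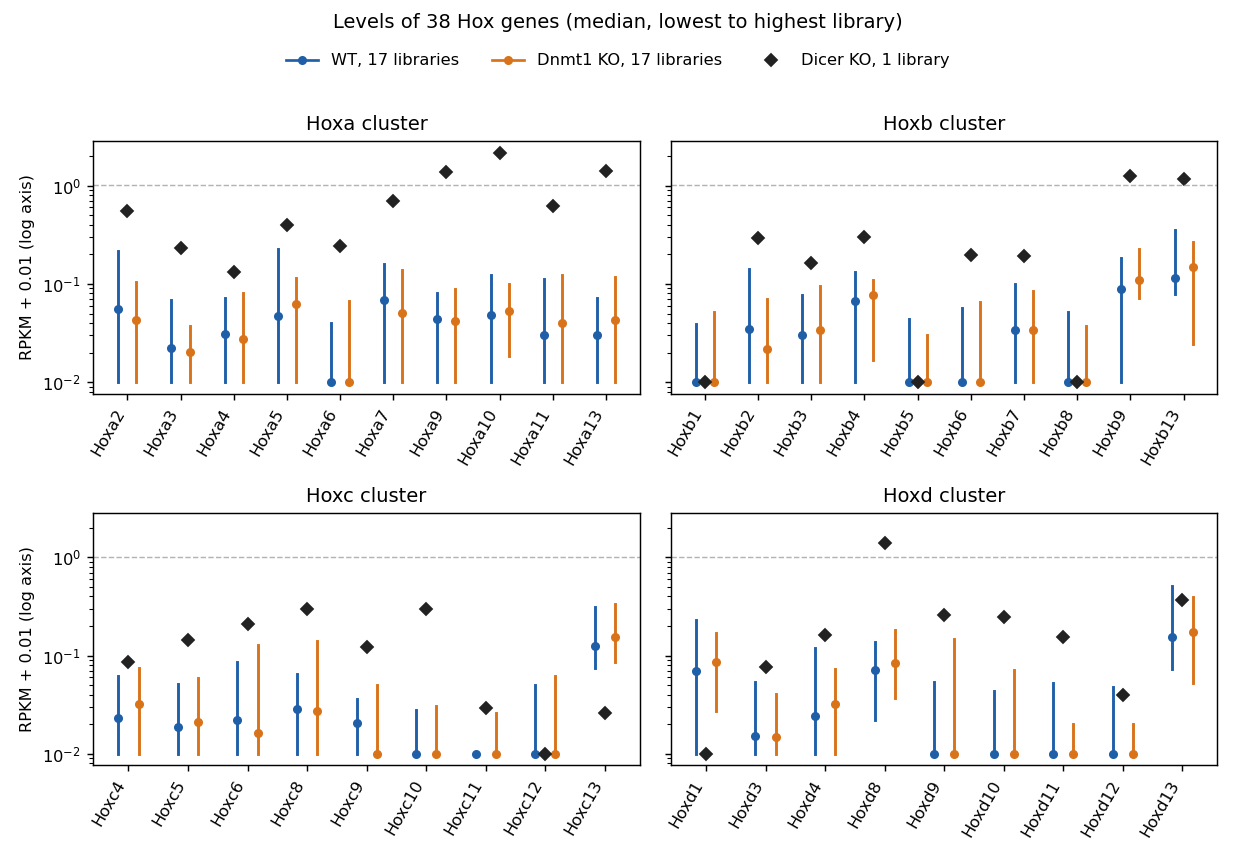
RPKM + 0.01 of each Hox gene on a log axis, in 1 panel per cluster. Lines run from the lowest to the highest library and dots mark the median of 17 WT (blue) and 17 Dnmt1 KO (orange) libraries, diamonds mark the Dicer KO library, and the dashed line marks 1 RPKM. WT and KO ranges overlap for every gene, and Hoxa10 has the highest diamond, at 2.16 RPKM.

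Some of these values are shared between neighbours. In GENCODE vM1, which is built on NCBIM37, 12 Hox genes share exon bases with another gene on the same strand, 7 with a gene on the opposite strand and 21 with none. The counting is not stated to use strand, so reads of a Hox gene and its antisense partner cannot be told apart. Hoxd4 shares 67.4% of its exon bases with Hoxd3, and Hoxb8 40.4% with Hoxb7. Hoxb2 shares 49.4% with Hoxb3os, Hoxa11 38.6% with Hoxa11as and Hoxa7 20.4% with 2700086A05Rik. Values of these genes are uncertain to that extent. Hoxa5, Hoxa10, Hoxa13, Hoxb9, Hoxb13, Hoxc13, Hoxd8 and Hoxd13 share no exon base.

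How many Hox genes had any read differed between the low-share and high-share libraries. In WT, 23 to 33 (median 28.5) of the 38 genes had a read in the 10 low-share libraries and 15 to 26 (median 17) in the 7 high-share libraries. In KO these were 22 to 35 (median 29.5) and 14 to 20 (median 18). Depth was 24.3 to 72.1 mega-reads in low-share and 27.1 to 38.5 in high-share WT and KO libraries. The 9 low-share libraries within the depth range of the high-share ones had 24 to 33 genes with a read, against 14 to 26 in the 14 high-share ones. The summed Hox reads overlapped between the sets in both genotypes, with 2.88 to 5.17 RPM (reads per mega-reads of the library) in low-share and 2.0 to 6.39 in high-share WT libraries. Per mega-reads, 24 of the 38 genes were higher in the low-share and 14 in the high-share WT and KO libraries. The same shares over all rows are not given, here or for day 1 below. These counts are therefore not read as a trait of Hox genes. Central genes were among those mostly absent from the high-share libraries. Hoxb6 had 0.0628 RPM in the low-share and 0 RPM in the high-share libraries (52 and 0 reads), Hoxc6 0.0616 RPM in the low-share and 0.00689 RPM in the high-share, and the posterior Hoxa9 0.158 RPM in the low-share and 0.0345 RPM in the high-share libraries. Hoxc13 and Hoxd13 went the other way, with 0.28 and 0.386 RPM in the low-share and 0.503 and 0.577 RPM in the high-share libraries.

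Except at day 1, each day has libraries of 1 kind, so day and exon share cannot be told apart. At day 1, replicates 1 and 2 of both genotypes had 22.4% of Hox values at 0 reads and replicate 3, which is high-share, 51.3%, at depths of 33.4 to 59.8 and 29.4 to 34.7 mega-reads. Hoxa9 had 7 and 6 reads in WT replicates 1 and 2, 4 and 4 in KO replicates 1 and 2, and 0 in both libraries of replicate 3. A list of 20 fibroblast markers moved with this difference. Their median level was 0.903 to 1.35 RPKM in low-share and 0.0183 to 0.125 RPKM in high-share WT libraries, and their summed level 33.2 to 43.6 and 17.17 to 39.8 RPKM. The part of these markers in the Hox values was not tested. In bulk RNA, fewer cells that express a gene and less RNA per cell cannot be told apart.

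**Figure D2:**
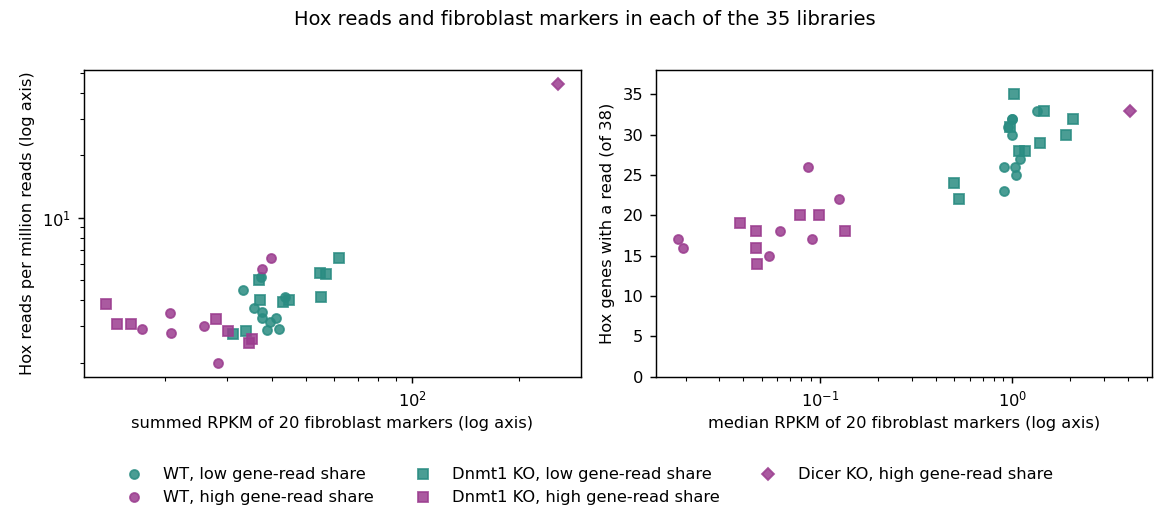
Each point is 1 of 35 libraries, coloured by low (green) or high (purple) gene-read share, with circles for WT, squares for Dnmt1 KO and a diamond for Dicer KO. Left, Hox RPM against the summed RPKM of 20 fibroblast markers, both on log axes. Right, the number of Hox genes with a read against the median RPKM of these markers (log axis). The Dicer KO library stands apart with 44 Hox RPM and a marker sum of 258 RPKM.

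The first comparison asked whether loss of Dnmt1 changed Hox RNA at each day. The fit of the design kept genes above 1 RPKM in at least 2 of 34 libraries, and 0 of the 38 Hox genes reached this level, so that it tested none of them. They were therefore tested in fits with a lower filter, by limma with Benjamini-Hochberg adjustment over all genes of the fit on the log2(RPKM + 0.1) scale. Above 0.1 RPKM in at least 2 of 34 libraries were 12 Hox genes among 17480 genes, and with no filter all 38 were tested among 22909 genes. Of the 12, Hoxa2, Hoxa5 and Hoxa10 passed the 0.1 RPKM filter only through WT day 25, where they were therefore bound to be high, so that their calls with this filter in comparisons with WT day 25 are no support. These fits rest on few reads. The log2 differences depend on the 0.1 RPKM added to each value and are no folds.

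**Figure D3:**
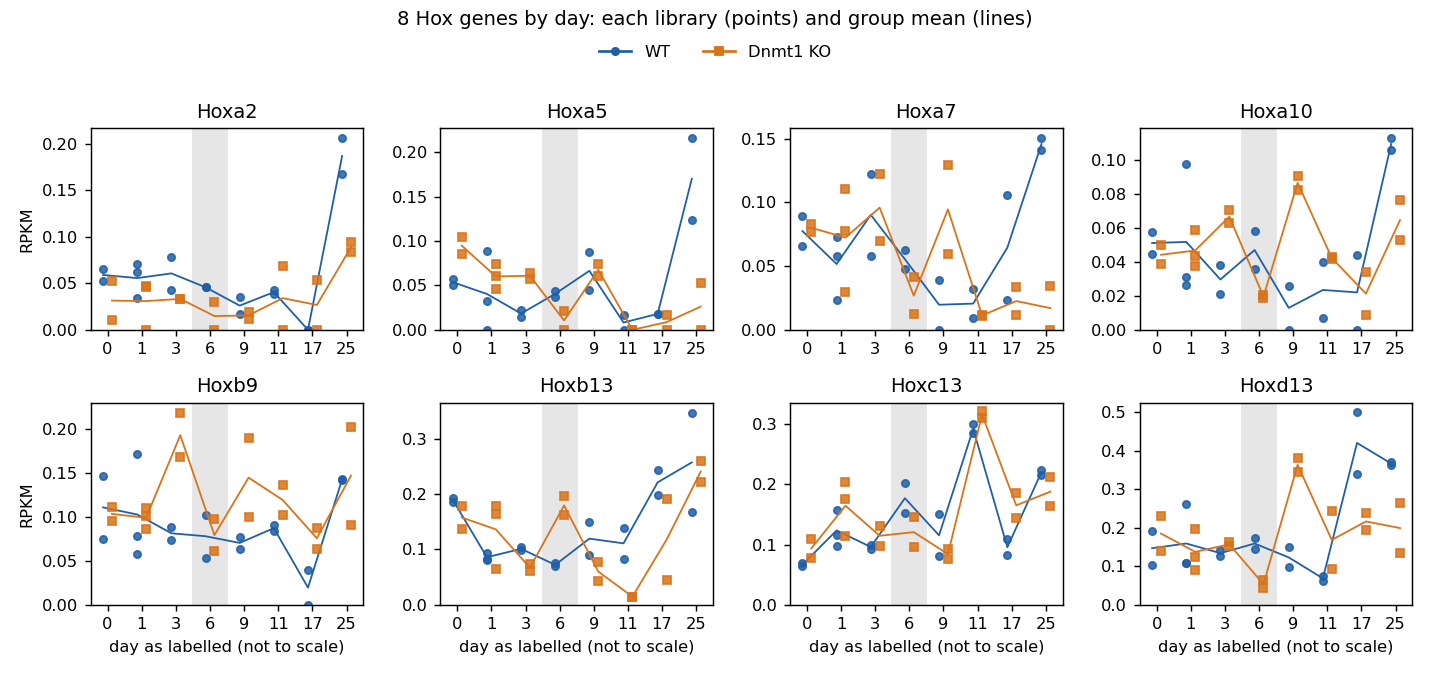
RPKM of 8 Hox genes by day as labelled (days are evenly spaced, not to scale). Blue circles are WT and orange squares Dnmt1 KO libraries, lines join group means, and the grey band marks day 6, where Dnmt1 goes against the labels. Hoxa2, Hoxa5, Hoxa7 and Hoxa10 have their highest library values in WT at day 25, and Hoxd13 is higher in KO at day 9 and lower in KO at days 17 and 25.

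At day 25, 3 of 38 Hox genes were lower in KO with no filter and 0 higher, beside 8.99% and 8.69% of all genes. The share of Hox genes called lower was thus no higher than that of all genes. All 3 were Hoxa genes, Hoxa3, Hoxa5 and Hoxa7, which act in the pharyngeal arches, lung and trunk. Hoxa5 had 0.124 and 0.216 RPKM (7 and 11 reads) in WT and 0 and 0.0522 RPKM (0 and 3 reads) in KO (log2 difference -1.11, SE 0.22, adjusted p = 0.00115). Hoxa7 had 0.15 and 0.141 RPKM (13 and 11 reads) in WT and 0 and 0.034 RPKM (0 and 3 reads) in KO (log2 difference -1.09, SE 0.26, adjusted p = 0.00554). Hoxa3 had 12 and 7 reads in WT and 2 and 1 in KO (log2 difference -0.46, SE 0.09, adjusted p = 0.00123). WT and KO did not overlap for any of these, and the KO libraries were at or below the floor of 3 reads. With the 0.1 RPKM filter Hoxa7, which passes it without WT day 25, was also called (log2 difference -1.09, SE 0.28, adjusted p = 0.00649), and Hoxa3 was not tested. Without KO day 25 replicate 1, which had 0 reads of both, Hoxa5 (adjusted p = 0.056) and Hoxa7 (adjusted p = 0.0894) did not pass with that filter. Hoxa2 (15 and 11 against 6 and 7 reads) and Hoxa10 (13 and 11 against 6 and 9 reads) were also above KO in both WT libraries but did not pass (adjusted p = 0.076 and 0.232 by limma with no filter).

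Summed by cluster, Hox reads at day 25 were lower in both KO libraries than in both WT libraries for all 4 clusters. Over all 38 genes the WT day 25 libraries had 6.39 and 5.64 RPM, against 2.0 to 3.45 RPM in the 5 other high-share WT libraries. The KO day 25 libraries had 3.06 and 3.82 RPM, against 2.49 to 3.23 RPM in the 5 other high-share KO libraries. The 10 Hoxa genes had 2.43 and 2.03 RPM in WT and 0.739 and 1.17 in KO, the Hoxb genes 1.7 and 1.58 against 1.08 and 1.21, the Hoxc genes 0.799 and 0.663 against 0.47 and 0.555, and the Hoxd genes 1.47 and 1.36 against 0.773 and 0.881. Whether the clusters differ was not tested. By position, anterior genes had 1.3 and 1.03 RPM in WT and 0.504 and 0.326 in KO, central genes 1.37 and 1.92 against 0.47 and 0.555, and posterior genes 3.73 and 2.69 against 2.08 and 2.94, so that WT and KO overlapped for the posterior genes and not for the others. The median log2 difference over the 38 genes was -0.09, and over all genes 0.00. The fibroblast markers moved with it, with a summed level of 39.8 and 37.6 RPKM in WT and 16 and 13.6 RPKM in KO, though 4 of 20 were above 1 RPKM in WT and 2 in KO. Their part was not tested.

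At the other days few Hox genes moved. With no filter, 0 of 38 were called at days 0, 1, 3, 6, 11 and 17, where limma called 0%, 0.00437%, 0.65%, 2.37%, 7.06% and 11.5% of genes. At an unadjusted p under 0.05 they numbered 2, 2, 4, 3, 3 and 6. Counts at this unadjusted threshold, here and below, lack the share of all genes beside them, so nothing is read from them. Voom on recovered reads, tried after the data were seen with the 0.1 RPKM filter, called 0 of 12 at days 0, 1, 3, 6 and 11, beside 0%, 0.0115%, 1.2%, 4.5% and 13.1% of genes, and Hoxb9, higher in KO, at day 17, beside 13.2% of genes called higher. Without the third pair of day 1, Hoxb13 at day 11 and Hoxd13 at day 17 were lower in KO, each 1 of 12 with the 0.1 RPKM filter, beside 9.97% and 9.35% of genes. At day 9, 2 of 38 were higher in KO and 0 lower, beside 2.17% and 0.607% of all genes. They were Hoxa10, with 0.0258 and 0 RPKM (7 and 0 reads) in WT and 0.0907 and 0.082 RPKM (15 and 11 reads) in KO (log2 difference 0.73, SE 0.19, adjusted p = 0.0374), and Hoxa6, with 1 and 0 reads in WT and 2 and 4 in KO, of which 1 library was above the floor. With the 0.1 RPKM filter 0 of 12 passed, beside 3.3% of genes (4 at an unadjusted p under 0.05), and Hoxa6 was not tested. Without the third pair of day 1, which stands apart from the others of that day, 3 of 12 were higher (Hoxa10, Hoxa11 and Hoxd13), beside 13.6% of genes. The median log2 difference of the 38 genes at day 9 was 0.16, against 0.00 over all genes. With the 0.1 RPKM filter and 1 library left out, Hoxd13 was called at day 9 in 7 of 34 fits and Hoxb13 at day 11 in 5. Hoxa10 was called at day 9 without WT day 1 replicate 3 (adjusted p = 0.0248), and Hoxb13 at day 17 without KO day 17 replicate 1 (adjusted p = 0.0149). Of 13 fibroblast markers tested at day 9, 3 were called higher in KO and 0 lower. The share of all genes called in that fit is not given here, and the part of these markers was not tested.

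Hoxd13 had the widest range of the Hoxd genes over the 34 libraries. At day 9 it had 0.0968 and 0.149 RPKM (17 and 9 reads) in WT and 0.346 and 0.38 RPKM (37 and 33 reads) in KO, and at day 17 0.34 and 0.50 RPKM in WT and 0.195 and 0.237 in KO. At day 25 it had 0.362 and 0.371 RPKM in WT and 0.135 and 0.263 in KO. The groups did not overlap on any of these days, with KO above WT at day 9 and below it later. At day 6 the libraries labelled WT had 0.145 and 0.173 RPKM and those labelled KO 0.0635 and 0.0432. These differences did not pass with the log2(RPKM + 0.1) fits, where the adjusted p with the 0.1 RPKM filter was 0.0516 at day 9, 0.147 at day 17 and 0.119 at day 25. By voom it passed at day 9 (adjusted p = 0.00543) and day 25 (adjusted p = 0.0289), beside 5.17% and 33.3% of genes.

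Whether the KO effect differed between days 25 and 9 was tested as an interaction. With no filter 5 of 38 Hox genes passed, all toward a lower KO level at day 25 than at day 9, beside 3.44% of all genes in that direction. These were Hoxa5 (-1.13), Hoxa7 (-1.78), Hoxa10 (-1.08), Hoxc8 (-0.90) and Hoxd13 (-1.74, differences of log2 differences, adjusted p between 0.00563 and 0.0374). Hoxc8, a gene of the thorax, had 7 and 1 reads in WT and 13 and 6 in KO at day 9 and 2 and 3 in WT and 1 and 1 in KO at day 25. Of the genes that pass the 0.1 RPKM filter without WT day 25, Hoxa7 and Hoxd13 were called with it too (adjusted p = 0.00712 and 0.0141). Leaving out 1 of the 8 libraries of these days gave fewer calls with that filter. Calls of Hoxa5 and Hoxa10 with it are no support, as they pass it only through WT day 25. The call of Hoxa5 was lost in 27 of 34 fits that left out any 1 library. Hoxa10 was lost without 7 of these 8, the call of Hoxa7 without KO day 9 replicate 1 or WT day 9 replicate 2, and that of Hoxd13 without WT day 9 replicate 1, KO day 9 replicate 2 or KO day 25 replicate 1. The fibroblast markers changed order in the same way, with a summed level of 42.1 and 41.1 RPKM in WT and 62.2 and 57 RPKM in KO at day 9 and of 39.8 and 37.6 RPKM in WT and 16 and 13.6 RPKM in KO at day 25. Of 13 tested, 4 were called in the same direction and 0 in the other, with no share of all genes in that fit given here. Their part was not tested. Day 9 is low-share and day 25 high-share.

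The WT libraries alone were then compared within each set. From day 0 to day 9, both low-share, 0 of 38 Hox genes passed with no filter (6 at an unadjusted p under 0.05), beside 0.0306% of all genes. Voom with the 0.1 RPKM filter called 0 of 12, beside 0.401% of genes.

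From day 11 to day 25, both high-share, 7 of 38 Hox genes rose and 0 fell with no filter, beside 11.9% and 10.4% of all genes. Of these, 5 were Hoxa genes, namely Hoxa2, Hoxa3, Hoxa5, Hoxa7 and Hoxa10, and the others Hoxb7 and Hoxd13. Hoxa2, which acts in the hindbrain and second arch, had 0.0381 and 0.0429 RPKM (3 and 4 reads) at day 11 and 0.206 and 0.167 RPKM (15 and 11 reads) at day 25 (log2 difference 1.03, SE 0.23, adjusted p = 0.00236). Hoxa5 had 1 and 0 reads and then 7 and 11 (log2 difference 1.3, SE 0.22, adjusted p = 1.87e-04), and Hoxa10 5 and 1 reads and then 13 and 11 (log2 difference 0.77, SE 0.19, adjusted p = 0.00491). Hoxd13 went from 0.0743 and 0.0628 RPKM to 0.362 and 0.371 RPKM (log2 difference 1.47, SE 0.30, adjusted p = 0.00105), and was already at 0.34 and 0.50 RPKM at day 17. The day 11 libraries were at or below the floor for Hoxa3, Hoxa5, Hoxa7 and Hoxb7. Of the genes that pass the 0.1 RPKM filter without WT day 25, Hoxa7 and Hoxd13 were called with it too (adjusted p = 0.00711 and 7.50e-04). With that filter, the calls changed when 1 of the 4 libraries, each from a group of 2, was left out. Calls of Hoxa2, Hoxa5 and Hoxa10 with it are no support, as they pass it only through WT day 25. Without WT day 11 replicate 2, Hoxa7 (adjusted p = 0.0707) and Hoxa10 (adjusted p = 0.126) did not pass, and without WT day 25 replicate 1 Hoxa10 did not (adjusted p = 0.0571). Without WT day 11 replicate 2 Hoxa11 was called lower at day 25, and Hoxb13 was called higher in 4 of the 34 fits that left out any 1 library. The fibroblast markers were also higher at day 25, with a summed level of 20.8 and 28.1 RPKM at day 11 and 39.8 and 37.6 RPKM at day 25 and a median of 0.0195 and 0.0183 and then 0.0871 and 0.125 RPKM. Of 13 tested, 2 were called higher and 1 lower, and Prrx1 and Dcn were at 0 in both WT day 25 libraries. Their part was not tested.

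Over days 3 to 25 together, 1 of 38 Hox genes was called with day 6 and 3 of 38 without it, with no filter. Hoxb9, a trunk and posterior gene, was higher in KO (log2 difference 0.33, SE 0.10, adjusted p = 0.037; without day 6, log2 difference 0.39, SE 0.11, adjusted p = 0.0153), beside 9.52% and 14.1% of genes called higher. With the 0.1 RPKM filter its call over days 3 to 25 was lost in 16 of 34 fits that left out 1 library, and Hoxb13 was called, lower, without KO day 17 replicate 1 (adjusted p = 0.0285). Without day 6, Hoxa11 was also called in 2 and Hoxd8 in 1 of these fits. At day 3 Hoxb9 had 0.089 and 0.0737 RPKM in WT and 0.168 and 0.218 in KO, at day 9 0.0769 and 0.0639 against 0.189 and 0.10, at day 11 0.0836 and 0.0908 against 0.136 and 0.103, and at day 17 0 and 0.0391 against 0.0879 and 0.0635. Both KO libraries were above both WT libraries on these days, while at day 25 the KO values (0.0914 and 0.203 RPKM) lay on both sides of the WT values (0.142 and 0.143 RPKM).

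Hoxb13 went the other way without day 6 (log2 difference -0.45, SE 0.12, adjusted p = 0.0117), beside 4.85% of genes called lower, and was not called with day 6 (adjusted p = 0.165). It had 0.104 and 0.0982 RPKM in WT and 0.0611 and 0.0728 in KO at day 3, 0.0897 and 0.149 against 0.0421 and 0.0779 at day 9, and 0.139 and 0.0824 against 0.0144 and 0.015 at day 11, with 10 and 7 reads against 1 and 1. At day 6 the libraries labelled WT had 0.0751 and 0.0692 RPKM and those labelled KO 0.197 and 0.162. The KO libraries were below the WT libraries at days 3, 9, 11 and 17 (0.199 and 0.243 against 0.19 and 0.0445 RPKM at day 17), and the groups overlapped at day 25. The day 17 values were 13 and 16 reads in WT and 13 and 3 in KO, so that 1 KO library equalled a WT library in reads. Hoxa6 was also called higher in KO without day 6, and its reads were between 0 and 4 in every WT and KO library. Hoxc13 had 0.30 and 0.285 RPKM in WT and 0.31 and 0.322 in KO at day 11, its highest levels, and was called at none of the days.

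The genes that act on the Hox clusters were expressed in the same libraries. The lists were tested among genes above 1 RPKM, where 20.9% of genes were called at day 25 and 28.7% from WT day 11 to day 25. Of 31 Polycomb genes, 29 were tested, of which at day 25 in KO 2 were higher and 4 lower (median log2 difference -0.27, against 0.13 over all 11615 genes). Both directions together are near the 20.9% of all genes called, and most of the list belongs to PRC1. The genes that moved were named after their values were seen. They were Pcgf5 (log2 difference 0.62, adjusted p = 0.0267) and Yaf2 (log2 difference 0.69, adjusted p = 0.0101), higher in KO, and Pcgf2 (log2 difference -1.75, adjusted p = 0.00153), Pcgf3 (log2 difference -0.94, adjusted p = 0.0396), Cbx6 (log2 difference -1.23, adjusted p = 2.64e-04) and Kdm2b (log2 difference -1.0, adjusted p = 0.00537), lower, all parts of PRC1. Of 10 Trithorax and H3K27 demethylase genes, 4 were lower and 1 higher in KO at day 25. Of those that fell, 3 are H3K4 methyltransferases, listed as Mll1 (log2 difference -2.07, adjusted p = 0.0018), Wbp7 (log2 difference -2.58, adjusted p = 2.23e-06) and Mll2 (log2 difference -2.92, adjusted p = 2.04e-04), and 1 was the H3K27 demethylase Kdm6b (log2 difference -2.23, adjusted p = 0.00752), while Ash2l (log2 difference 0.98, adjusted p = 0.0428) rose. From WT day 11 to day 25, 5 of these 10 rose and 0 fell, among them Mll1 (log2 difference 1.53, adjusted p = 0.0131), Wbp7 (log2 difference 2.20, adjusted p = 8.47e-06), Mll2 (log2 difference 2.33, adjusted p = 0.0011) and Kdm6b (log2 difference 1.56, adjusted p = 0.0485). Both comparisons share the WT day 25 libraries.

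Of 9 Hox cofactors 5 were tested, and Meis1 (log2 difference -1.20, adjusted p = 0.012) and Pbx4 (log2 difference -0.77, adjusted p = 0.0432) were lower in KO at day 25, with 0 higher. Of 14 upstream regulators 6 were tested, of which 2 were higher and 1 lower. The retinoic acid receptor Rara fell (log2 difference -1.31, adjusted p = 0.00483), and the retinoic acid binding proteins Crabp1 (log2 difference 2.04, adjusted p = 1.01e-05) and Crabp2 (log2 difference 0.97, adjusted p = 6.63e-04) rose. Rara rose in WT from day 11 to day 25 (log2 difference 1.59, adjusted p = 6.26e-04). Of 51 other developmental regulators that Polycomb holds in stem cells, 7 were tested, and 1 was higher and 0 lower in KO at day 25. ESC markers were above 1 RPKM in all libraries, 7 of 7, and 4 of them, Sox2, Nanog, Esrrb and Dppa5a, fell in WT from day 11 to day 25. Their part in the Hox values was not tested.

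The Dicer KO library held more Hox RNA than each of the other 34. It had 1135 Hox reads, or 44 RPM, against 2.0 to 6.39 RPM in the 17 WT libraries and at most 6.36 in KO. There is 1 Dicer KO library and hence no test, and the counting intervals given cover counting error only. A Hox gene was called where it lay more than 1 log2 unit above every WT library on the log2(RPKM + 0.1) scale. This held for 15 of 38, beside 7.11% of 22001 rows. It held in the other direction for 0 of 38, beside 0.832% of rows. Against the 7 high-share WT libraries, whose gene-read share the Dicer KO library has, 18 of 38 were above, beside 8.04% of rows. Just inside the threshold was Hoxa3, at 1.02 log2 units above the highest WT library, and just outside Hoxb6, at 0.97. For each library the median log2 level was taken over genes above 1 RPKM in at least 2 of the 35 libraries. That of Dicer KO was 0.23 log2 units above the middle value of the high-share WT libraries and 1.14 above that of all WT libraries. With each library centred on its median 6 of 38 were called. The share of all rows called with this centring is not given here, so that this count is not set against it.

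The posterior Hoxa genes stood out. Hoxa9 had 1.36 RPKM (122 reads), against a highest WT library of 0.0707 RPKM, or 42.7 times the pooled WT rate (95% interval 31.8 to 57.7). Hoxa10, which with Hoxa11 acts in the uterus and limb, had 2.16 RPKM (214 reads), against at most 0.113 RPKM in WT, or 51.5 times the pooled WT rate (95% interval 40.7 to 65.5). Hoxa11 had 0.606 RPKM (42 reads) against at most 0.103 RPKM, and Hoxa13, a gene of the digits and genital tract, 1.41 RPKM (90 reads) against at most 0.0623 RPKM. All 4 posterior Hoxa genes were called, as were the central Hoxa6 and Hoxa7 (2 of 4) and the anterior Hoxa2 and Hoxa3. Hoxa7 had 0.688 RPKM (51 reads) against at most 0.15 RPKM, and Hoxa2 0.544 RPKM (34 reads) against at most 0.206 RPKM.

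In the other clusters fewer genes were called, with 2 of 10 in Hoxb, 2 of 9 in Hoxc and 3 of 9 in Hoxd, against 8 of 10 in Hoxa. In Hoxb both were posterior, Hoxb9 with 1.25 RPKM (83 reads) and Hoxb13 with 1.16 RPKM (66 reads), against highest WT values of 0.172 and 0.347 RPKM. In Hoxd, Hoxd8 had 1.4 RPKM (99 reads) against at most 0.126 RPKM, and Hoxd9 and Hoxd10 had 0.249 RPKM (14 reads) and 0.234 RPKM (16 reads). In Hoxc, Hoxc8 had 0.287 RPKM (17 reads) and Hoxc10 0.284 RPKM (14 reads), where Hoxc10 had 4 reads in all 17 WT libraries together, which makes 91.9 times the pooled WT rate (95% interval 28.9 to 383). By position, 2 of 7 anterior, 4 of 15 central and 9 of 16 posterior genes were called, with a median Dicer KO level of 0.155, 0.187 and 0.267 RPKM. Whether clusters or positions differ was not tested.

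Not all Hox genes were raised. Hoxc13, at least 0.064 RPKM in every WT library, had 1 read in Dicer KO, against 234 reads in WT together, or 0.112 times the pooled WT rate (95% interval 0.00283 to 0.631). Hoxd1 had 0 reads, and the limit of 3 reads is 0.0625 RPKM, within the WT range of 0 to 0.22 RPKM. Hoxb1, Hoxb5, Hoxb8 and Hoxc12 also had 0 reads, and had at most 3 in any WT library. Hoxd13, the highest Hoxd gene in WT, had 0.359 RPKM (23 reads) and lay within the WT range of 0.0628 to 0.50 RPKM. Of the windows printed above, those of the called genes Hoxa7, Hoxa10 and Hoxa13 hold 12, 7 and 35 CG, and those of Hoxc13 and Hoxd13, which were not called, 15 and 31. The 15 called genes had a median of 11 CG and the other 23 a median of 12.

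**Figure D4:**
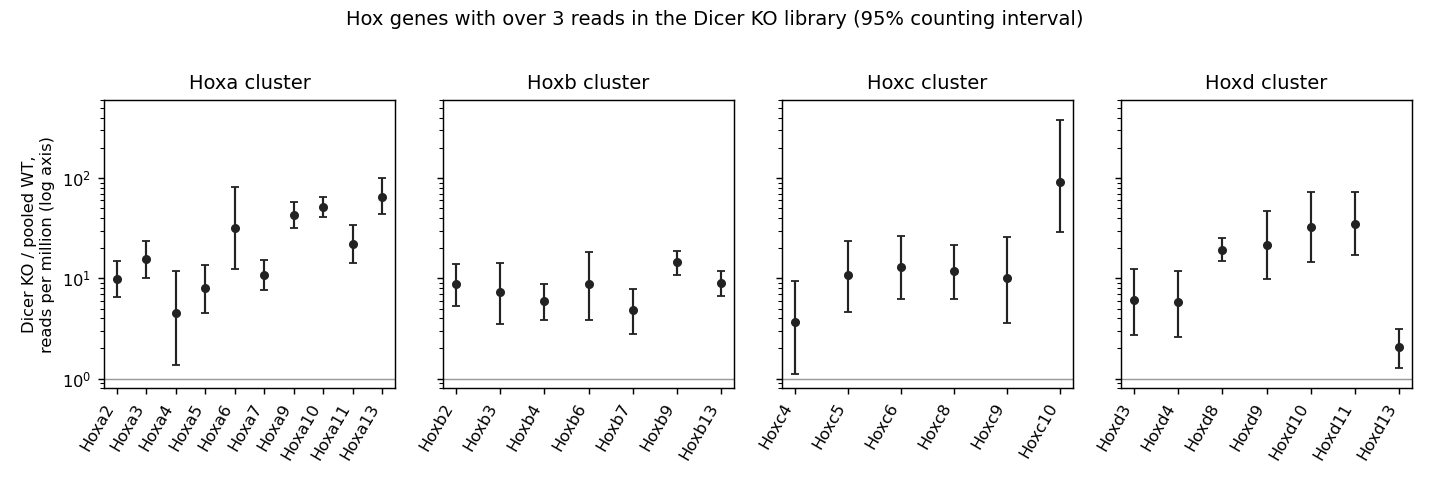
Ratio of RPM in the Dicer KO library to that pooled over 17 WT libraries (log axis) for the Hox genes with over 3 reads in Dicer KO, by cluster in order of their number. The 8 genes with at most 3 reads there, among them Hoxc13 and Hoxd1, are left out, so that a gene without reads in Dicer KO cannot appear. Bars are exact 95% intervals of counting error, and the line marks a ratio of 1. The posterior Hoxa genes lie between 22.1 and 65.6, and Hoxd13 has the lowest ratio of the Hoxd genes shown.

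Of the 23 other rows inside the cluster spans, 15 were above the highest WT library in Dicer KO and 8 were not. Of these 8, 7 were at 0 in Dicer KO, and 5 of the 7 were also at 0 in all WT libraries. This asks for any value above WT, not for 1 log2 unit. The share of all rows that meet it is not given here, so nothing is read from the count. Among the 15 rows above WT, 5 are given, chosen after their values were seen. Gm53 in Hoxb had 2.37 RPKM in Dicer KO against at most 0.611 in WT, Gm11538 0.977 against 0.171, RP23-329P9.11 near Hoxa9 0.526 against 0.0645, and Gm20440 in Hoxd 0.623 against 0.107. Hoxa11as, antisense to Hoxa11, had 0.303 RPKM against at most 0.0587. RP23-329P9.11, Gm20440 and Hoxa11as share exon bases with Hoxa9, with Hoxd10 and Hoxd11, and with Hoxa11, in that order. In WT none of the 23 rows had a mean level above 1 RPKM, against 12 of 25 rows next to the clusters.

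Other gene lists were read by the same rule, which called 7.11% of all rows above and 0.832% below. Of 31 Polycomb genes 3 were above all WT libraries (Bmi1, Cbx6 and Cbx8, all of PRC1) and 0 below, of 10 Trithorax and H3K27 demethylase genes 0 and 0, of 9 cofactors 1 (Pbx3) and 0, and of 14 upstream regulators 1 (Gdf11) and 0. Of 51 other developmental regulators held by Polycomb 7 were above and 1 (Gata6) below. The median log2 difference from the WT median was 1.37 over the 38 Hox genes and 0.58 over all rows. It was higher over the fibroblast markers (1.97) and 3 neural markers (1.64). It was lower over the cofactors (1.31), Polycomb genes (0.94), ESC markers (0.85), upstream regulators (0.67) and Trithorax list (0.60). Lower too were 4 mesoderm markers (0.44), the other developmental regulators (0.39) and 6 extraembryonic endoderm markers (-1.34). Of the 17 WT libraries behind this median, 10 are low-share. ESC markers gave 0 of 7 above and 0 below. Fibroblast markers gave 14 of 20 above and 0 below, with a summed level of 258 RPKM against 17.17 to 43.6 RPKM in WT, and 17 of the 20 were above 1 RPKM. Fibroblasts of the trunk and limbs are known to express posterior Hox genes. The part of these markers in the Hox values of the Dicer KO library was not tested, and with 1 library the genotype, the clone and the culture cannot be told apart.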

How the data were processed

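Total RNA of 35 mouse ESC libraries (17 WT, 17 Dnmt1 KO, 1 Dicer KO) was sequenced after depletion of ribosomal RNA. The authors deposited 1 table of RPKM values per gene on a linear scale, while their methods name log2 RPM. Reads were trimmed with Trim Galore 0.3.5 and mapped with TopHat2 2.0.11, per the submitters' processing notes, to NCBIM37 with a mapping quality of at least 20, and counted over exons in SeqMonk. Use of strand is not given in the sources used here.

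Differences were tested on log2(RPKM + 0.1) with limma 3.58.1 (R 4.3.3, trend, groups of genotype and day, Benjamini-Hochberg, 0.05), for genes above 1 RPKM in at least 2 of 34 libraries. The design was written for RPKM and was kept. None of the 38 Hox genes given passed this filter, so their tests come from repeats with a filter of 0.1 RPKM or none, with other pseudocounts, scalings, libraries and voom on reads recovered as RPKM times exon length. 1 further row that matches the rule, and 1 gene of a list, are not reported here. Intervals were exact (scipy 1.17.1). The fits were tested on simulated data. Hox genes past the threshold were named, with the top 3 of each cluster by mean WT level, for 8 of which the range over groups is given. Hox genes and lists were chosen with earlier results of these data known. Python 3.11.15, numpy 2.4.6, pandas 2.3.3 and matplotlib 3.10.9 were used.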

Additional observations from a re-analysis of the deposited data

Results flagged for a closer look

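For 5 Hox genes the KO effect at day 25 differed from that at day 9 in the fit with no filter on low values, by limma with Benjamini-Hochberg adjustment over 22909 genes. The difference between the KO minus WT log2 differences of these days was negative in each, for Hoxa5 (-1.13, SE 0.31, adjusted p = 0.0347), Hoxa7 (-1.78, SE 0.37, adjusted p = 0.00563), Hoxa10 (-1.08, SE 0.27, adjusted p = 0.0183), Hoxc8 (-0.90, SE 0.25, adjusted p = 0.0374) and Hoxd13 (-1.74, SE 0.42, adjusted p = 0.0165). KO was above WT at day 9 in both libraries for Hoxa7, Hoxa10, Hoxc8 and Hoxd13, and the groups overlapped for Hoxa5. At day 25 KO was below WT in both libraries for all 5. With the 0.1 RPKM filter Hoxa7 and Hoxd13 were called too. Hoxa5 and Hoxa10 pass that filter only through WT day 25, so that their calls with it are no support, and Hoxc8 was not tested. The summed level of the fibroblast markers was also above WT in KO at day 9 and below WT in KO at day 25, and their part was not tested. Hoxc8 had at most 3 reads in each library of day 25.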

How the results depend on the processing

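With the 1 RPKM filter 0 Hox genes were tested, also with pseudocount 0.01 or 1, median centring, the TPM scale, voom, only the groups compared, the replicate block, without the third day 1 pair or without any 1 library, so that these repeats gave no value, and all were run again with the 0.1 RPKM filter, a choice made after seeing the data. In all of them 0 Hox genes were called in KO against WT at days 0, 1 and 3 and in WT day 9 against day 0. The counts that follow are, in this order, for KO against WT at days 6, 9, 11, 17 and 25, over days 3 to 25, over these without day 6, for the difference between days 25 and 9, and for WT day 25 against 11. In comparisons with WT day 25, the counts with the 0.1 RPKM filter may include Hoxa2, Hoxa5 and Hoxa10, which pass it only through those libraries. Except where stated in the Results, the share of all genes called in each setting is not given here. The counts therefore show only how far the number of calls varies with the setting.

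The counts were 0, 0, 0, 0, 2, 1, 2, 4 and 5 with the 0.1 RPKM filter and 0, 2, 0, 0, 3, 1, 3, 5 and 7 with no filter. With the 0.1 RPKM filter they were 0, 0, 1, 1, 2, 1, 4, 2 and 4 with pseudocount 0.01, 0, 1, 0, 1, 3, 1, 2, 4 and 6 with pseudocount 1, 0, 1, 0, 1, 2, 0, 1, 2 and 5 with median centring, 1, 2, 0, 1, 3, 1, 2, 3 and 4 on the TPM scale and 2, 3, 0, 0, 2, 1, 3, 3 and 5 with only the groups compared. They were 1, 3, 1, 1, 4, 1, 4, 4 and 6 without the third day 1 pair, 0, 1, 0, 1, 3, 1, 2, 3 and 4 by voom and 0, 3, 2, 2, 3, 3, 5, 4 and 6 by voom without that pair. Leaving out 1 library gave 0 at day 6, 0 to 2 at day 9, 0 to 1 at day 11, 0 to 1 at day 17, 0 to 2 at day 25, 0 to 1 over days 3 to 25, 2 to 3 without day 6, 1 to 4 for days 25 and 9 and 4 to 6 in WT.

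Replicate numbers 1 and 2 did not pair the libraries (correlation across genes of the difference between replicates 1 and 2 in KO with that in WT, -0.16 to 0.26 over the days). At day 1, replicate 3 differed from the others alike in both genotypes. The same correlation was 0.91 for replicates 1 and 3 and 0.89 for replicates 2 and 3. This shared shift is modelled only with the replicate block. With the replicate block and the 0.1 RPKM filter the first 8 counts were 1, 2, 1, 1, 3, 1, 3 and 4. In Dicer KO, 6 Hox genes were above all WT libraries with median centring, 24 (1 below) with pseudocount 0.01 and 4 with pseudocount 1. The shares of all rows called in these settings are not given here. The cause of these changes was not tested. Depth limits the genes under 0.1 RPKM, where a few reads decide a value.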
